A study of Mus musculus with 36 samples.

Results

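The contractile gene list of intestinal smooth muscle held 10 genes, Cnn1, Tagln, Acta2, Actg2, Myh11, Csrp1, Des, Smtn, Mylk and Myl9, and was taken as every probe set annotated to 1 of these symbols alone. It comprised 19 of the 36701 probe sets tested and 10 of the 15964 genes with a named probe set. The study profiled whole segments of the intestine of male mice of the outbred stock Hsd:ICR(CD-1), 8 weeks old, untreated and on standard chow: colon (not split into proximal and distal parts), ileum (the stretch before the ileo-ceco-colic junction), jejunum (the middle of the small intestine) and duodenum (the stretch next to the stomach). Each segment was represented by 3 pools of RNA from 10 mice each, and each pool was hybridised to 3 oligonucleotide array sets, A, B and C, which gave 36 arrays. Because every sample was a full-thickness segment, the muscle layers, mucosa, nerves and vessels were measured together, and the pools do not show the spread between single mice.

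Smooth muscle contracts when calcium and calmodulin activate myosin light chain kinase, which phosphorylates the regulatory light chain of smooth muscle myosin and lets it pull on actin filaments. Calponin, transgelin and smoothelin bind those actin filaments, and desmin filaments link the contractile apparatus across the cell. In the intestine this machinery fills the inner circular and outer longitudinal muscle coats that mix and propel the contents, with thinner muscle in the mucosa and around vessels.

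All values are the authors' scaled intensities in array units. Tests used log2(intensity + 16) in limma's moderated model, with Benjamini-Hochberg adjustment over all 36701 probe sets, and a gene was called at an adjusted p below 0.05. Folds are ratios of mean intensities, and log2 differences carry the standard error (SE) of the model. Each gene is described first by its brightest probe set on array set A, where all 10 genes had one. Scaling gave every array a trimmed mean between 200.05 and 200.19, so depth has no meaning here and the number of pools limits the precision. The array medians were 48.6 to 75.3 on set A, 85.8 to 110.5 on set B and 85.9 to 104.9 on set C. The control probe sets for 18S ribosomal RNA divided the pools: on set A they read 2712 to 10420 in 8 pools (all colon and duodenum pools, ileum pool 2 and jejunum pool 1) and 80.1 to 684.5 in the other 4 (ileum pools 1 and 3, jejunum pools 2 and 3). The set C array titled duodenum 3 names jejunum in its source label. It was kept under its title, and only 1 further probe set each of Acta2 and Csrp1 is on set C.

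The contractile genes were at their highest in colon. All 10 genes rose in colon relative to the mean of the small-intestinal segments, with a median log2 difference of 1.88 against 0.036 over all probe sets tested, where 4.44% were called higher and 7.57% were called in either direction. In each of the 10 genes all 3 colon pools lay above all 9 small-intestinal pools, which held for 4.46% of all probe sets. The lowest colon pool exceeded the highest small-intestinal pool by 1.15-fold for Myl9 and by 3.5-fold for Cnn1, the extremes among the 10 genes. In these bulk samples, more smooth muscle cells and more RNA per cell cannot be told apart. With arrays centred on their medians the 10 genes were still called and their median fell to 1.70, while the split over all probe sets moved to 1050 higher and 1381 lower, against 1628 higher and 1150 lower with the authors' scaling.

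**Figure D1:**
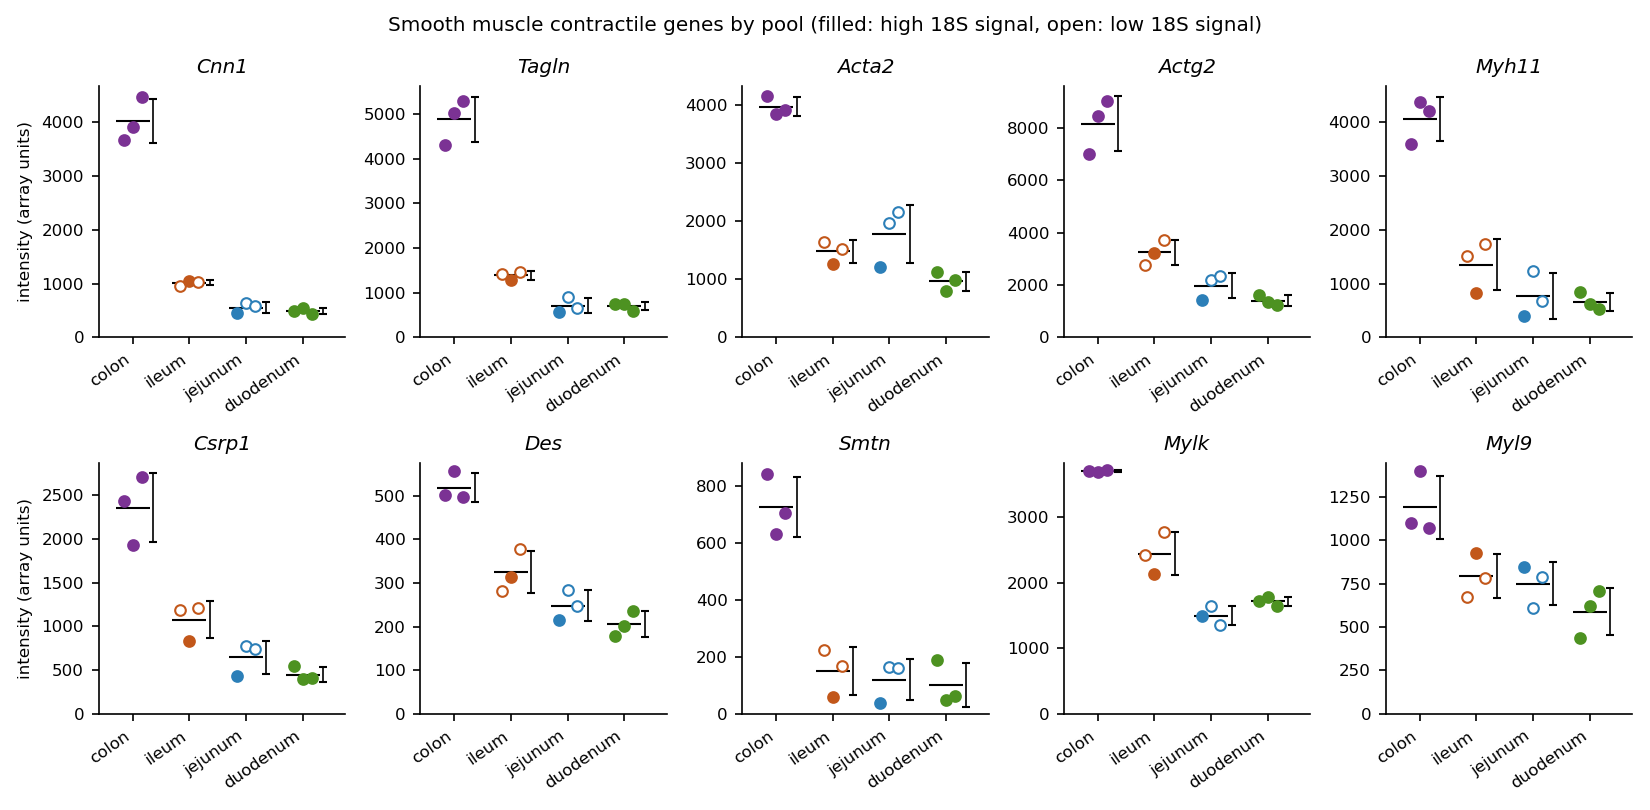
Intensity (array units, linear axis with its own scale per gene) of the 10 contractile genes in each of 3 pools of colon, ileum, jejunum and duodenum. Horizontal bars are segment means, whiskers are SD over 3 pools, and filled and open circles are pools with high and low 18S control signal. Every colon pool sits above all 9 small-intestinal pools in all 10 panels.

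Of the proteins that form the thin filament, Acta2 encodes the alpha actin of smooth muscle, which is shared by vascular and visceral muscle. Acta2 read 4166.6, 3856.8 and 3918.9 in the colon pools, 1650.3, 1267.3 and 1530.3 in ileum, 1206.7, 1962.8 and 2163.6 in jejunum, and 1123.4, 793.5 and 985.7 in duodenum. Colon stood clear of the rest, whereas the ileum pools lay inside the range of the jejunum pools and the duodenum pools lay below every other pool. Acta2 was 2.82-fold higher in colon than in the small intestine (log2 difference 1.55, SE 0.17, adjusted p = 1.48e-05). It was the only gene of the 10 whose jejunum mean, 1778 ± 505 (SD, n = 3), exceeded its ileum mean, 1483 ± 196 (SD, n = 3), and that difference was within error (ileum minus jejunum, log2 -0.22, SE 0.20, adjusted p = 0.74).

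The short stretches below, which lie before the Acta2 start site of the RefSeq promoter table, are shown because both hold a box of the kind that serum response factor, a regulator of muscle genes, is known to bind. The motif searched was the CArG box on both strands, which for this palindromic motif give the same matches, and a looser form with 1 G or C in its 6-base A/T core. Both Acta2 boxes, in capitals, were of the looser form and lay at -84 to -75 and -34 to -25, where -1 is the base before that start site. The table's start site lies 212 bases inside the annotated gene, so both stretches are within the gene's bounds. The stretches are on the minus strand of RefSeq GRCm38.p6 at chr19:34255438-34255467 and chr19:34255388-34255417, written 5′ to 3′.
Acta2 upstream box: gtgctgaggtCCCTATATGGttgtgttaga
Acta2 downstream box: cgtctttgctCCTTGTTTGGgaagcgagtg
In the 250 bases before the start site, 7.24% of 32851 promoter windows in the table held the looser form and 1.47% held the exact form. Among 8 windows for 7 of the contractile genes, 2 held the looser form (Acta2 and Myl9) and 1 held the exact form (Myl9). The table had no window for Tagln, Actg2 or Myh11, so these genes were not searched. A match describes these letters only, and the arrays did not measure binding.

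Actg2 encodes the gamma actin of visceral smooth muscle. Its probe set read 6987.0, 8447.3 and 9015.1 in the colon pools, 2768.6, 3218.1 and 3727.0 in ileum, 1423.5, 2167.0 and 2329.0 in jejunum, and 1618.7, 1351.5 and 1226.2 in duodenum. The colon and ileum pools each formed a separate band above the jejunum and duodenum pools, and the last pair of segments overlapped. Colon was 3.70-fold above the small-intestinal mean (log2 difference 1.97, SE 0.16, adjusted p = 7.78e-07), and ileum was 1.20 log2 units above duodenum (SE 0.20, adjusted p = 0.00322). The ileum-minus-jejunum difference of 0.73 missed the threshold (adjusted p = 0.0647). This probe set carries the array design's mark for a family of like sequences, so other actins may add to its signal. Probe sequences were not at hand, and this was not checked.

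Cnn1 encodes calponin, an actin-binding protein that restrains the myosin ATPase, and Tagln encodes transgelin, a related actin-binding protein of early differentiating smooth muscle. Cnn1 read 3680.1, 3923.6 and 4476.3 in the colon pools, 959.3, 1052.4 and 1030.2 in ileum, 447.0, 635.3 and 575.8 in jejunum, and 495.3, 535.8 and 426.2 in duodenum. Tagln read 4318.8, 5033.8 and 5299.1 in colon, 1409.3, 1276.9 and 1469.3 in ileum, 564.2, 892.8 and 663.6 in jejunum, and 749.3, 748.5 and 590.4 in duodenum. In both genes the pools formed 3 levels, with colon on top, ileum in the middle, and jejunum and duodenum overlapping at the bottom.

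Both genes rose at the step into colon and at the step into ileum. Cnn1 was 5.89-fold higher in colon than in the small intestine (log2 difference 2.61, SE 0.13, adjusted p = 2.15e-09), and Tagln was 5.26-fold higher (2.46, SE 0.14, adjusted p = 1.34e-08). Ileum exceeded jejunum by 0.87 log2 units for Cnn1 (SE 0.16, adjusted p = 0.0076) and by 0.98 for Tagln (SE 0.17, adjusted p = 0.00679). Jejunum and duodenum were not distinguished, with log2 differences of 0.17 for Cnn1 (adjusted p = 0.788) and 0.01 for Tagln (adjusted p = 0.996). The Cnn1 probe set carries the design's mark for sequence shared between transcripts.

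Myh11 encodes the heavy chain of smooth muscle myosin, the motor of the thick filament. It read 3604.9, 4379.0 and 4212.3 in the colon pools, 1513.0, 819.4 and 1730.2 in ileum, 394.3, 1238.9 and 679.8 in jejunum, and 841.1, 615.1 and 522.9 in duodenum. The colon pools agreed closely, with a coefficient of variation of 10.0%, while the jejunum pools varied by 55.7% and overlapped both neighbours. Colon exceeded the small intestine 4.38-fold (log2 difference 2.26, SE 0.28, adjusted p = 5.79e-05), and the ileum-minus-jejunum difference of 0.88 did not pass (SE 0.34, adjusted p = 0.232).

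Myl9 encodes the regulatory light chain that myosin light chain kinase phosphorylates, and it had the smallest colon difference of the 10 genes. Its pools read 1102.3, 1400.5 and 1070.2 in colon, 673.9, 927.8 and 784.6 in ileum, 848.1, 610.2 and 790.1 in jejunum, and 438.9, 619.4 and 705.0 in duodenum. The small-intestinal segments overlapped one another throughout, and colon sat only just above them. Colon was 1.68-fold above the small-intestinal mean (log2 difference 0.75, SE 0.16, adjusted p = 0.00838). That call was lost without colon pool 2 (0.63, adjusted p = 0.0833) and with only the pools of high 18S signal (0.61, adjusted p = 0.0684). Against single segments, Myl9 passed for colon minus duodenum (1.01, adjusted p = 0.00502) and missed for colon minus jejunum (0.66, adjusted p = 0.0524) and colon minus ileum (0.57, adjusted p = 0.187). With pool number as a block and only the colon and ileum arrays, an alternative chosen after seeing the data, colon minus ileum passed (adjusted p = 0.0384).

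The upstream sequence of Myl9 is shown because it held the only exact CArG box among the 8 member windows searched. Those windows did not cover Tagln, Actg2 or Myh11. The stretch is the plus strand of RefSeq GRCm38.p6, chr2:156775214-156775407, and ends at the base before the annotated gene, 56 bases short of the table's start site. Its 2 boxes, in capitals, lay at -105 to -96 (exact) and -43 to -34 (1 G or C in the core), where -1 is the last base of the stretch.
Myl9 upstream: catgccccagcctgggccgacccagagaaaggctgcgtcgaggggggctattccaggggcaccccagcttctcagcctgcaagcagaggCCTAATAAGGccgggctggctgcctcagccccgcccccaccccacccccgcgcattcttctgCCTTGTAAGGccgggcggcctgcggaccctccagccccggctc
At least 2 boxes of either form were present in 0.67% of all windows of the table and in 2 of the 8 member windows. The windows used for Cnn1, Csrp1, Des, Smtn and Mylk held neither form. The Mylk start site lies 39751 bases inside the annotated gene, and 1 of the 2 Csrp1 start sites lies 9104 bases inside. Those windows are within the bounds of their genes and do not show the sequence before them.

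Mylk encodes myosin light chain kinase, the enzyme that starts contraction. Its set A probe set read 3704.5, 3681.7 and 3710.3 in the colon pools, 2420.9, 2132.3 and 2774.6 in ileum, 1488.0, 1641.2 and 1358.1 in jejunum, and 1723.3, 1778.0 and 1646.1 in duodenum. Colon was the most even segment, and the duodenum pools lay just above the jejunum pools. It was the only gene of the 10 with a higher mean in duodenum than in jejunum. Colon exceeded the small intestine 1.96-fold (log2 difference 1.00, SE 0.11, adjusted p = 2.74e-05). Ileum exceeded jejunum by 0.70 log2 units (SE 0.14, adjusted p = 0.0141), and the jejunum-minus-duodenum difference of -0.20 did not pass (adjusted p = 0.686).

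A pair of further Mylk probe sets on array set B repeated the colon difference and not the ileum step. One read 6948.5, 6504.2 and 6786.1 in colon, 4155.1, 2627.7 and 4170.4 in ileum, 2117.2, 5678.6 and 3602.2 in jejunum, and 2568.0, 1963.0 and 2110.4 in duodenum. The other read 2523.3, 2312.2 and 2561.7 in colon, 1688.6, 840.1 and 1782.4 in ileum, 770.5, 1547.0 and 818.6 in jejunum, and 1097.2, 625.1 and 892.0 in duodenum. In both, all colon pools were above all small-intestinal pools, and ileum and jejunum overlapped. Their colon-minus-small-intestine log2 differences were 1.15 (SE 0.23, adjusted p = 0.00407) and 1.22 (SE 0.25, adjusted p = 0.00488). For ileum minus jejunum they gave 0.02 (adjusted p = 0.988) and 0.45 (adjusted p = 0.606), so the Mylk ileum call rested on 1 of its 3 bright probe sets.

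Des encodes desmin, the muscle intermediate filament protein. It read 502.3, 557.3 and 496.6 in the colon pools, 281.7, 314.6 and 377.8 in ileum, 214.6, 283.8 and 246.1 in jejunum, and 177.6, 200.8 and 236.7 in duodenum. Each segment mean was lower than that of the next segment away from the stomach, and the pools of neighbouring small-intestinal segments overlapped. Colon was 2.00-fold above the small intestine (log2 difference 0.99, SE 0.15, adjusted p = 0.000381), and its difference from ileum alone just missed (0.66, SE 0.18, adjusted p = 0.0662).

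Csrp1 encodes a LIM-domain protein that binds the actin cytoskeleton and takes part in smooth muscle differentiation. It read 2440.3, 1931.6 and 2711.2 in the colon pools, 1188.8, 837.7 and 1206.9 in ileum, 429.5, 775.2 and 736.8 in jejunum, and 543.1, 393.6 and 408.1 in duodenum. No ileum pool reached the lowest colon pool or fell to the highest jejunum pool. Colon exceeded the small intestine 3.26-fold (log2 difference 1.78, SE 0.19, adjusted p = 1.19e-05), and the ileum-minus-jejunum difference of 0.75 did not pass (adjusted p = 0.11). The second set A probe set of Csrp1 followed the first across the 12 pools (Pearson r = 0.99) and gave a colon difference of 1.65 (SE 0.17, adjusted p = 1.25e-05).

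Smtn encodes smoothelin, a protein of fully contractile smooth muscle. It read 841.9, 631.5 and 705.7 in the colon pools, 225.1, 59.0 and 169.4 in ileum, 36.1, 162.6 and 159.2 in jejunum, and 190.2, 47.6 and 64 in duodenum. The colon pools formed a narrow band far above the rest, and the small-intestinal pools were scattered, with coefficients of variation of 55.9% in ileum, 60.4% in jejunum and 77.6% in duodenum. Colon was 5.87-fold above the small intestine (log2 difference 2.60, SE 0.42, adjusted p = 0.000882). No difference between small-intestinal segments passed for Smtn, with adjusted p from 0.787 to 0.939. The values of 59.0, 36.1, 47.6 and 64 lay below 69.27, the median over all probe sets of set A. The size of the colon difference depended on the offset, at 2.80 with an offset of 1 and 2.17 with an offset of 64.

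**Figure D2:**
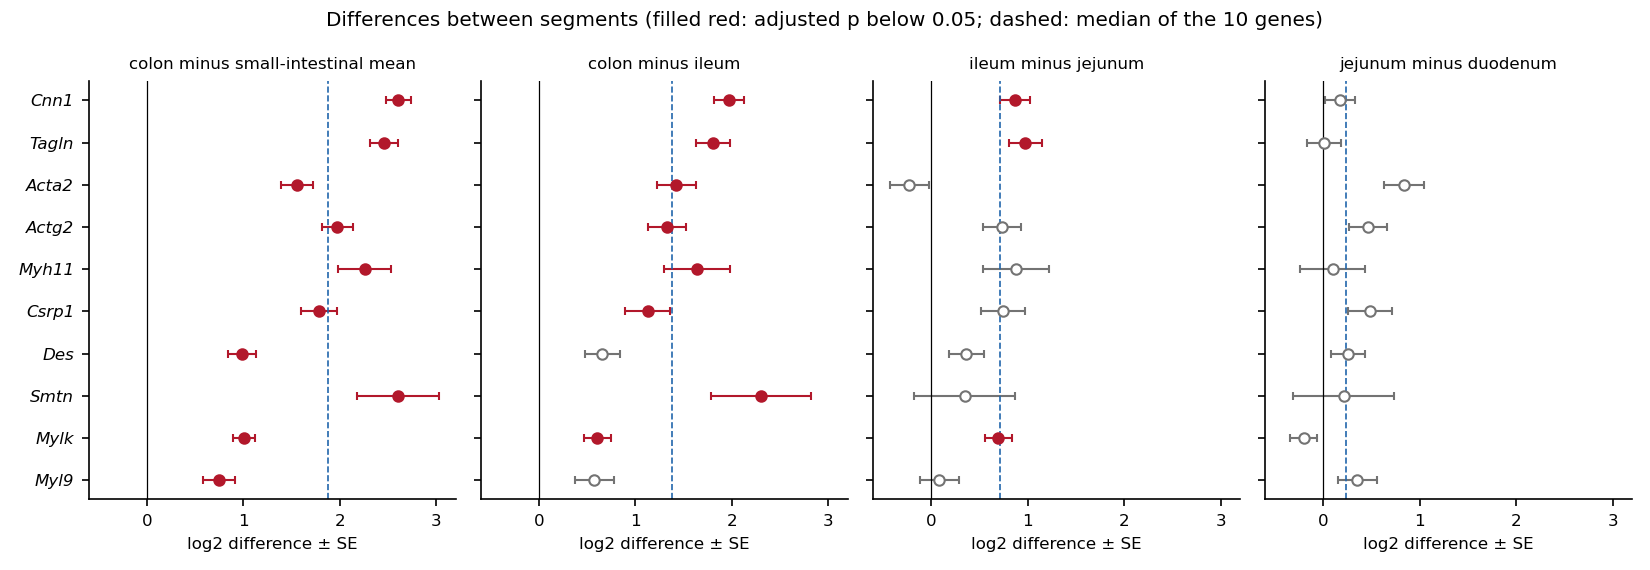
Log2 differences (points) with the model's SE (whiskers) of the 10 contractile genes for colon minus the small-intestinal mean, colon minus ileum, ileum minus jejunum and jejunum minus duodenum. Filled red points have an adjusted p below 0.05, and the dashed lines are the medians of the 10 genes, 1.88, 1.38, 0.71 and 0.24.

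Between neighbouring segments, the step into colon was the one most members shared. Colon exceeded ileum in 8 of the 10 genes by the test (all but Des and Myl9), with a median log2 difference of 1.38, where 3.28% of all probe sets were called and 1.55% were called higher. In all 10 genes the colon pools lay above the ileum pools, as they did for 10.2% of all probe sets. Smtn (2.30, SE 0.52, adjusted p = 0.0216), Cnn1 (1.97, SE 0.16, adjusted p = 1.19e-06) and Tagln (1.80, SE 0.17, adjusted p = 9.03e-06) had the largest differences of the 10, and Mylk the smallest called one (0.60, SE 0.14, adjusted p = 0.0248). The count depended on single pools: it was 4 without ileum pool 2, and 5 without colon pool 1, 2 or 3. It was also 5 with arrays centred on their medians. Cnn1, Tagln, Acta2 and Actg2 were called in each of these cases. The Smtn call was lost in 6 of 25 alternatives, among them the limma fit without an intensity trend (adjusted p = 0.0539). The Mylk call was lost in 9 of 25. In limma the pair of bright Mylk probe sets on set B did not pass for colon minus ileum. They gave 0.91 (adjusted p = 0.115) and 0.85 (adjusted p = 0.208).

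Ileum exceeded jejunum in 3 of the 10 genes, Cnn1, Tagln and Mylk, with a median log2 difference of 0.71, where 2.78% of all probe sets were called and 1.61% were called higher. The ileum pools lay above the jejunum pools without overlap in 5 of the 10 genes, against 10.4% of all probe sets. Centring the arrays moved the median of all probe sets to -0.11, against 0.06 with the authors' scaling. Relative to these medians, that of the 10 genes was 0.55 higher with centring and 0.65 higher with the authors' scaling. With centring none of the 10 was called (limma, against 3 at the authors' scaling), and the calls over all probe sets were 202 higher and 551 lower, against 591 higher and 429 lower. None was called either when only ileum and jejunum arrays entered the limma fit, where the adjusted p-values were 0.0699 for Cnn1, 0.0539 for Tagln and 0.129 for Mylk. The Mylk call was also lost without ileum pool 1 (adjusted p = 0.0548), ileum pool 3 (0.0939) or jejunum pool 3 (0.0569), and Myh11 passed without jejunum pool 2 (1.29, adjusted p = 0.0488).

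Within ileum and jejunum, several members were lower in the pool with high 18S signal. Jejunum pool 1, the jejunum pool with high 18S signal, had the lowest value of its segment in 8 of the 10 genes, and ileum pool 2, its counterpart, in 6 of the 10. How often these pools were lowest over all probe sets was not counted. The 10 genes were read on the same arrays, so these counts are not independent. For Myh11 the high-18S pool read 819.4 in ileum against 1513.0 and 1730.2 in the low-18S pools, and 394.3 in jejunum against 679.8 and 1238.9. With 18S class as a block, 6 of the 10 genes rose in ileum relative to jejunum: Cnn1, Tagln and Mylk, joined by Actg2 (0.73, adjusted p = 0.0395), Myh11 (0.88, adjusted p = 0.0379) and Csrp1 (0.75, adjusted p = 0.0221). In that fit 3.4% of all probe sets were called and 1.96% were called higher. With only the high-18S pools, which leaves 1 pool each of ileum and jejunum, none of the 10 passed in limma, while the log2 differences were 1.21 for Cnn1, 1.16 for Tagln and 0.51 for Mylk. The part of 18S signal in the members' levels was not tested. The colon difference held in 10 of 10 genes with the block and in 9 of 10 with the high-18S pools alone.

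Jejunum and duodenum were not separated for any of the 10 genes by limma at the adjusted threshold, where 0.924% of all probe sets were called. At an unadjusted p below 0.05, 2 of the 10 were higher in jejunum, Acta2 and Actg2. The share of all probe sets at that unadjusted threshold was not counted, for these genes or for the lists below, so such counts have no background. Acta2 had the largest difference of the 10 (0.84, SE 0.20, adjusted p = 0.0737), and it passed without jejunum pool 1 (1.09, adjusted p = 0.00371) and after low-intensity probe sets were removed (0.84, adjusted p = 0.0481). Ileum exceeded duodenum in 4 of the 10 genes, Cnn1 (1.04, adjusted p = 0.00156), Tagln (0.98, adjusted p = 0.00596), Actg2 and Csrp1 (1.23, adjusted p = 0.00891), with a median of 0.80, where 1.83% of all probe sets were called and 0.858% were called higher. The Csrp1 call was lost without duodenum pool 2 (adjusted p = 0.0518) or ileum pool 3 (adjusted p = 0.0574). The 18S block and the high-18S pools each left 2 of those calls, Cnn1 and Actg2, as did centring.

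The duodenum pools also carried RNA of the exocrine pancreas, and every array is scaled to a fixed trimmed mean. The summed intensity of all 3 pancreas markers, Prss2, Cela3b and Cpa1, was 66 to 274.5 in colon, 50.3 to 75.3 in ileum and 58.6 to 85.8 in jejunum, whereas it was 40794 to 49762 in duodenum. The part of this RNA in the duodenum levels of the contractile genes was not tested. Colon exceeded jejunum in 9 of the 10 genes (all but Myl9; median 1.97, with 9.19% of all probe sets called and 5.81% called higher), and it exceeded duodenum in all 10 (median 2.44, with 5.99% called and 3.34% called higher). With median centring 7 remained for colon minus jejunum, Acta2 (adjusted p = 0.0604) and Des (0.0526) being lost, and the split over all probe sets moved to 1164 higher and 1819 lower, against 2131 higher and 1240 lower with the authors' scaling. For colon minus duodenum that split moved to 847 higher and 1070 lower with centring, against 1225 higher and 973 lower. With the lower middle probe set of each gene, ranked by difference, the counts were 6 for colon minus jejunum (median 1.02) and 7 for colon minus duodenum (median 1.23), Acta2, Actg2 and Myh11 being lost in both. Over the 4 segments together, the moderated F test called all 10 genes, against 8.82% of all probe sets.

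The remaining probe sets of the members differed in how far they followed the same pattern. Of all 19, 14 were called higher in colon than in the small intestine and none lower by limma. Myh11 was read by a further set B probe set with 384.2, 401.9 and 456.4 in colon, 330.4, 490.9 and 329.0 in ileum, 387.8, 299.1 and 402.5 in jejunum, and 262.1, 181.6 and 332.1 in duodenum. That probe set overlapped between colon and the small intestine (0.33, SE 0.21, adjusted p = 0.48), unlike the set A probe set of the same gene. The third Myh11 probe set was dim, at 163.4 ± 57.2 in colon, 29.6 ± 9.76 in ileum, 76.2 ± 45.8 in jejunum and 70.5 ± 15.4 in duodenum (SD, n = 3 each). By limma it was called higher in colon than in the small intestine (1.33, SE 0.36, adjusted p = 0.0317). A colon pool at 108.9 still lay below a jejunum pool at 128.9, and colon did not pass against jejunum (adjusted p = 0.199) or duodenum (0.245). All its ileum pools lay below all its jejunum and duodenum pools, unlike the set A probe set.

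A set C probe set of Csrp1 kept the order of segment means, at 751.9 ± 155 in colon, 560.4 ± 109 in ileum, 459.8 ± 127 in jejunum and 369.2 ± 146 in duodenum (SD, n = 3 each), and did not pass for colon (0.72, SE 0.27, adjusted p = 0.15, or 0.68, SE 0.27, adjusted p = 0.206 without duodenum pool 3). The 3 other extra probe sets, of Acta2, Actg2 and Mylk, averaged 78.2, 127.6 and 70.3 over the 12 pools, against medians of 103.9 for set C and 105.4 for set B over all probe sets. They had adjusted p-values of 0.601, 0.826 and 0.659 for colon minus the small intestine. With the Actg2 probe set of this group in place of the bright one, ileum minus duodenum turned to -0.86 (adjusted p = 0.776) and colon minus jejunum to -0.05 (adjusted p = 0.99).

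**Figure D3:**
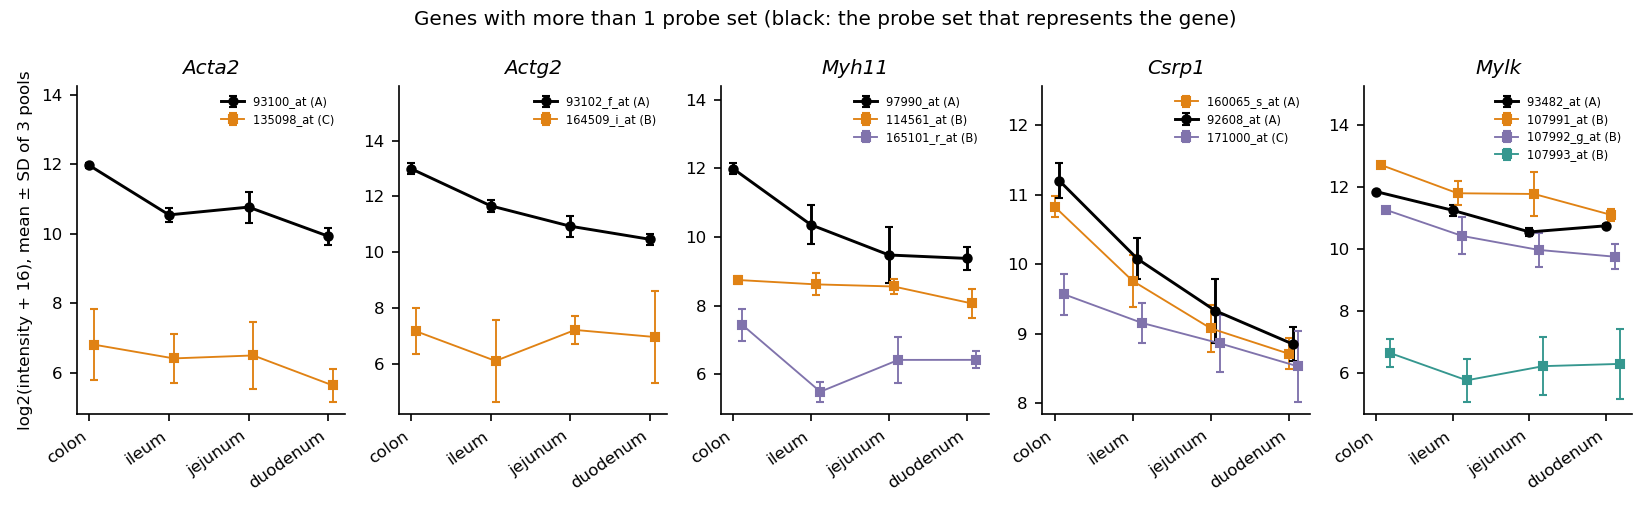
Mean log2(intensity + 16) with SD over 3 pools in colon, ileum, jejunum and duodenum for every probe set of the 5 contractile genes that have more than 1, with the array set in brackets. The Csrp1 probe sets on set A run in parallel, the bright Mylk probe sets on sets A and B differ in the order of ileum, jejunum and duodenum, the set B Myh11 probe set is flatter than the set A one, and the dim Acta2, Actg2 and Mylk probe sets overlap between segments.

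Across the 12 pools the members varied together. Pearson r over the 45 pairs of members ranged from 0.507 (Smtn with Myl9) to 0.995 (Cnn1 with Tagln), with a median of 0.912. The 12 points share 4 segments and the same set A arrays, so the colon level alone raises these values. On deviations from segment means the same 45 pairs had a median r of 0.363, with a range of -0.793 to 0.923. Myl9 followed the mean profile of the list least (r = 0.75), and Cnn1, Tagln and Actg2 followed it most closely (r = 0.985 each). The mean centred log2 profile of the 10 genes was 1.301, 1.35 and 1.393 in the colon pools, 0.061, -0.219 and 0.174 in ileum, -0.944, -0.273 and -0.41 in jejunum, and -0.641, -0.895 and -0.899 in duodenum. The ileum pools lay below colon and above the other segments without overlap, ileum pool 2 and jejunum pool 2 being the closest, and the jejunum and duodenum pools overlapped.

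Proteins that work beside the members, given as 16 measured genes of 17 contractile partners, were often higher in colon too. Of the 16, 10 rose in colon relative to the small intestine and none fell, with a median log2 difference of 1.17. Fhl1, a LIM-domain protein of muscle, averaged 1630 in colon, 428.8 in ileum, 110.7 in jejunum and 185.3 in duodenum (2.90, adjusted p = 1.29e-07). Cald1, the actin-binding caldesmon (1.91, adjusted p = 3.91e-05), Synpo2, which encodes a Z-band and dense-body protein (1.71, adjusted p = 0.000805), Synm, the intermediate filament protein synemin (1.67, adjusted p = 2.12e-05) and Tpm1, a tropomyosin of the thin filament (1.57, adjusted p = 2.82e-05) were also called. The partner genes had 3 calls for ileum over jejunum, Fhl1 (1.79, adjusted p = 0.00109), Actn1 (1.02, adjusted p = 0.0057) and Tpm1 (0.91, adjusted p = 0.0383). Tpm2, Flna, Pdlim7, Nexn, Myl6 and Lmod1 did not pass for colon, and the Flna, Nexn and Myl6 probe sets were below the median of their array set.

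Few genes that set the phosphorylation of myosin or the calcium signal were called for colon, where 4.44% of all probe sets were called higher. Of 8 measured genes that control light chain phosphorylation, 1 rose in colon, Ppp1cb, a catalytic subunit of myosin phosphatase, at 503.8 in colon, 201.6 in ileum, 102.1 in jejunum and 112.8 in duodenum (1.85, adjusted p = 0.000256), and the list median was 0.51. Of 11 channels, pumps and receptors none was called for colon in limma, 6 were higher at an unadjusted p below 0.05, and the median was 0.62. Pln, the inhibitor of the calcium pump, averaged 368.9 in colon, 209.8 in ileum, 193.8 in jejunum and 132.3 in duodenum (1.13, adjusted p = 0.092), and 5 of these 11 probe sets lay below the median of their array set. Among the genes that control light chain phosphorylation, the Calm2, Rock1 and Prkg1 probe sets were below that median too.

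Of 8 transcription factors of smooth muscle or gut mesenchyme, 1 rose in colon. Klf4, which is expressed in epithelium as well as in dedifferentiating smooth muscle, averaged 1690 in colon, 810.6 in ileum, 413.3 in jejunum and 668.1 in duodenum (1.47, adjusted p = 1.76e-05). Srf, the factor that binds CArG boxes, averaged 850.9 in colon, 878.2 in ileum, 819.2 in jejunum and 787.8 in duodenum, and its colon difference was 0.04 (adjusted p = 0.94). Myocd, its muscle coactivator, averaged 159.3 in colon, 100.1 in ileum, 63.2 in jejunum and 85.5 in duodenum and did not pass (0.87, adjusted p = 0.153). The Myocd, Foxf1 and Nkx2-3 probe sets were below the median of their array set. These are RNA levels of whole segments and do not measure the activity of a factor.

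**Figure D4:**
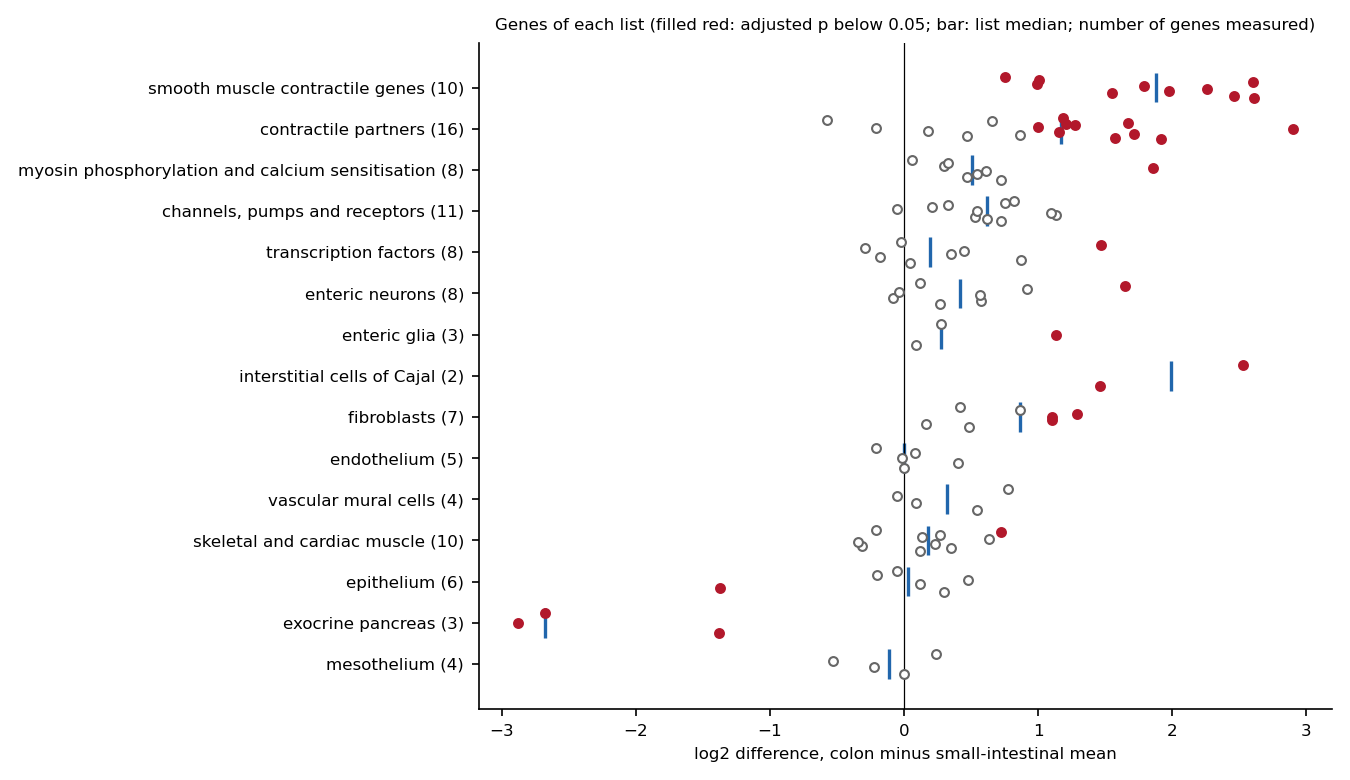
Log2 difference of colon minus the small-intestinal mean for each measured gene (points) of the contractile list, the related lists and the cell type marker lists, with the number of genes measured in brackets. Filled red points have an adjusted p below 0.05 and bars are list medians: 1.88 for the contractile genes, 1.17 for their partners, 1.99 for the markers of interstitial cells of Cajal and 0.002 for endothelium.

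Markers of other cell types of the wall were read on the same arrays, and their part in the members' differences was not tested. Both measured markers of interstitial cells of Cajal, the pacemaker cells of the muscle coat, rose in colon: Ano1 averaged 820.4 in colon, 122.1 in ileum, 99.4 in jejunum and 181.3 in duodenum (2.53, adjusted p = 2.02e-06), and Kit differed by 1.46 (adjusted p = 0.00025). Their summed level was 987.9 to 1142.4 in colon, against 225.2 to 271.3 in ileum, 125.1 to 190.2 in jejunum and 197.2 to 317.5 in duodenum. Of 7 fibroblast markers 3 rose in colon (Col3a1, Dcn and Lum) and 5 were higher at an unadjusted p below 0.05, with a summed level of 3329.7 to 3804.4 in colon, 2237.8 to 2863.4 in ileum, 1494.9 to 2516.1 in jejunum and 1953.1 to 2433.2 in duodenum. Of 8 enteric neuron markers 1 rose (Snap25) and 4 were higher at an unadjusted p below 0.05, and of 3 glial markers 1 rose (Gfap) and no other had an unadjusted p below 0.05. The neuron sums were 1191.4 to 1254.3 in colon, 713.8 to 855.6 in ileum, 912.7 to 1222.3 in jejunum and 1052.3 to 1200.7 in duodenum. The glial sums were 246.9 to 287.1 in colon, 112.9 to 244.7 in ileum, 133.8 to 203.9 in jejunum and 162.4 to 284.6 in duodenum. Colon and duodenum overlapped in both lists, and the neuronal genes Vip and Ret had means below 10 in every segment. Tubb3 was the largest part of the neuron sums, with means of 832.6 in colon, 645.3 in ileum, 789.4 in jejunum and 899.5 in duodenum. The Snap25 and Gfap probe sets were below the median of their array set.

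None of 5 endothelial, 4 mural and 4 mesothelial markers was called between colon and the small intestine by limma, and none had an unadjusted p below 0.05. The probe sets of Cdh5, Kdr, Tek, Cd34, Rgs5, Pdgfrb, Cspg4, Msln and Wt1 were below the median of their array set. Such low signals limit what these lists can show. Endothelial sums were 212.7 to 306.6 in colon, 219.3 to 327.5 in ileum, 265.4 to 308.8 in jejunum and 208.6 to 297.3 in duodenum. Mural sums were 292.9 to 355.8 in colon, 282.2 to 352.7 in ileum, 151.4 to 274.2 in jejunum and 180.1 to 287.0 in duodenum. Vessels also hold smooth muscle. For these mural markers the colon and ileum pools overlapped, and all colon pools lay above all jejunum and duodenum pools. Mesothelial sums, which Krt19 dominated, were 10953 to 13207 in colon, 12365 to 12907 in ileum, 8090 to 12534 in jejunum and 7382.9 to 8349 in duodenum. In colon Krt19 averaged 11770, against 13.9 for Msln, 57.8 for Upk3b and 33.0 for Wt1. These sums are therefore in effect the level of Krt19 and do not measure mesothelium.

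Striated muscle and epithelium were checked in the same way. Of 10 skeletal and cardiac muscle markers 1 rose in colon, the cardiac actin Actc1 (0.72, adjusted p = 0.00213), whose probe set is marked for a family of like sequences as that of Actg2 is. The skeletal myosin gene Myh1 averaged 2.17 in colon, 2.80 in ileum, 13.5 in jejunum and 5.13 in duodenum. Sums over the 10 striated markers were 1680.7 to 1972.9 in colon, 1333.4 to 1642.8 in ileum, 1009.8 to 1521.2 in jejunum and 1030.7 to 1229.6 in duodenum. Actc1 was the largest part of these sums, with means of 1171 in colon, 873.4 in ileum, 706.8 in jejunum and 562.6 in duodenum. Of 6 epithelial markers 1 fell in colon, Vil1, the actin bundler of the brush border, at 1976 in colon, 5390 in ileum, 5799 in jejunum and 4333 in duodenum (-1.37, adjusted p = 1.67e-06). Epithelial sums overlapped between colon, at 24546 to 30015, and duodenum, at 24356 to 28247, with 30328 to 37708 in ileum and 26967 to 28600 in jejunum. The ratio of the 3′ to the 5′ actin control, a sign of RNA quality, was 1.30 to 1.43 in colon, 1.14 to 1.20 in ileum, 1.28 to 1.55 in jejunum and 1.41 to 1.84 in duodenum on set A.

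Outside the list, the genes whose profile over the 12 pools was most like the mean profile of the members were ranked among 14505 probe sets of 9996 genes, as a description. Atp2a3, a calcium pump of the endoplasmic reticulum, came first (r = 0.991), at 4523 ± 645 in colon, 1642 ± 221 in ileum, 1256 ± 304 in jejunum and 1030 ± 145 in duodenum (SD, n = 3 each). S100a6, a calcium-binding protein, followed (r = 0.984), at 10350 ± 1850 in colon, 2579 ± 206 in ileum, 1811 ± 586 in jejunum and 1143 ± 121 in duodenum. Cav1, the coat protein of caveolae, had r = 0.979, with 559.1 ± 49.3 in colon, 147.8 ± 22.7 in ileum, 90.2 ± 27.4 in jejunum and 82.8 ± 22.9 in duodenum. Next came Prkaa2 (r = 0.979), Hsd11b2 (0.976), Tfcp2l1 (0.972), Smim14 (0.97), Ms4a8a (0.969), Gas6 (0.967) and Postn (0.963).

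Genes with the opposite profile were led by Adh4 (r = -0.978), an alcohol dehydrogenase, Apoa4 (-0.975), an apolipoprotein made by absorbing enterocytes, Cyp3a11 (-0.97), Pklr (-0.969) and Galm (-0.965). Apoa4 averaged 44.7 ± 29.9 in colon, 3147 ± 1730 in ileum, 21240 ± 4450 in jejunum and 19160 ± 4180 in duodenum (SD, n = 3 each). Adh4 averaged 5.30 ± 2.62 in colon, 80.9 ± 14.2 in ileum, 268.6 ± 73.7 in jejunum and 355.4 ± 61.1 in duodenum. Both had their lowest mean in colon and their next lowest in ileum, the reverse of the members' mean profile. These correlations share segments and arrays and were ranked on the same 12 pools, so any gene that follows the order of the segments scores high.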

How the data were processed

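Total RNA of 12 pools (4 segments, 3 pools of 10 mice each) was hybridised to 3 array sets, 36 arrays in all. The authors deposited 1 linear intensity per probe set, and from the values every array had been scaled to a trimmed mean near 200 (2% trimmed at each end). Which software made the values, with which background correction, is not given in the sources used here, and no detection calls were used. Depth does not apply, and the 3 pools per segment limit the precision. The labels state that the mice were divided into 3 pools, not that equal numbers in different segments are the same mice.

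From these values, log2(intensity + 16) was fitted with limma 3.58.1 in R 4.3.3, 1 fit per array set over all 12 arrays with 1 mean per segment and an intensity trend in the variance. P-values of the 3 sets were adjusted together (Benjamini-Hochberg, 2-sided) over 36701 probe sets, after 198 control probe sets were left out. Of these steps only the limma fit was tested on simulated data, with shifts placed in ileum and read for ileum minus jejunum. By the platform annotation, 29131 probe sets had exactly 1 gene symbol (29044 of them found in the current RefSeq gene table), 724 had more than 1, and 6846 had no symbol. Each gene was represented by its brightest probe set on set A, else on B, else on C. The genes most like the list were the 10 named genes with the highest Pearson r with its mean profile, and the 5 with the lowest. Related lists (contractile partners, myosin phosphorylation and calcium sensitisation, channels with pumps and receptors, transcription factors) and marker lists (enteric neurons, enteric glia, interstitial cells of Cajal, fibroblasts, endothelium, vascular mural cells, skeletal and cardiac muscle, epithelium, exocrine pancreas, mesothelium) are described by counts and medians. The members, lists and tests were chosen with earlier results of these data known. Boxes were searched in 250 bases before each start site of the RefSeq GRCm38.p6 promoter table, and the 50 bases after it were not used. Deviations of pools of equal number had a median r of 0.00375, 0.0233 and 0.01 on sets A, B and C, with a range of -0.463 to 0.472. For colon with ileum all were positive (0.124 to 0.283 on set A, 0.0311 to 0.164 on B, 0.095 to 0.254 on C). Since no other pair of segments had all 3 above 0.1 on any set, pool numbers were not treated as pairing samples in the tests, and a colon and ileum fit with pool number as a block was added after seeing the data. Alternatives covered the offset, a filter on low values, quantile normalization and median centring, the variance model, the arrays in the fit, a replicate block, the 18S class, the choice of probe set, and each pool left out in turn.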

Additional observations from a re-analysis of the deposited data

How the results depend on the processing

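In 25 alternatives, of which 1 was chosen after seeing the data, 22 of the 44 gene calls over the 7 comparisons were kept in every alternative, and 2 turned direction. The number of the 10 genes called for colon minus the small-intestinal mean stayed at 8 to 10. With the replicate block it was 10, and the block gave 8 for colon minus ileum, 3 for ileum minus jejunum, 0 for jejunum minus duodenum, 4 for ileum minus duodenum, 9 for colon minus jejunum and 10 for colon minus duodenum, so it changed no count. With the replicate block and only the colon and ileum arrays, the added alternative, colon minus ileum gave 9, Myl9 being gained. For colon minus ileum, median centring and the lower middle probe set each gave 5, and leaving out 1 pool gave 4 to 9. For ileum minus jejunum, median centring, the compared arrays alone and the high-18S pools alone each gave 0, the 18S block gave 6, and leaving out 1 pool gave 2 to 4. For ileum minus duodenum, median centring, the 18S block and the high-18S pools each gave 2. For jejunum minus duodenum, the filter on low values gave 1, and leaving out 1 pool gave 0 to 1. Calls turned for Actg2 with its lower middle probe set (ileum minus duodenum -0.86, colon minus jejunum -0.05). Uncalled differences that changed sign were, for jejunum minus duodenum, Tagln with quantile normalization (-0.08), Tagln (-0.20), Myh11 (-0.62) and Smtn (-0.87) with the 18S block, Cnn1 (-0.11), Tagln (-0.29), Myh11 (-0.69), Csrp1 (-0.05) and Smtn (-0.96) with the high-18S pools, and Mylk with its upper middle probe set (0.22). For ileum minus jejunum they were Myl9 with centring (-0.19), Acta2 with the high-18S pools (0.07) and Actg2 with its lower middle probe set (-1.11), and for ileum minus duodenum Smtn with the 18S block (-0.53) and the high-18S pools (-0.44). With 1 pool left out in turn, Tagln ranged from -0.17 to 0.15, Myh11 from -0.31 to 0.49 and Smtn from -0.13 to 0.80 for jejunum minus duodenum, and Smtn from -0.24 to 0.85 and Myl9 from -0.05 to 0.20 for ileum minus jejunum. The high-18S pools leave fewer samples. The choice of probe set brings in dim ones for Acta2, Actg2 and Myh11, but for Mylk it also brings in the bright ones of set B. The cause of these changes was not tested. Signals near the median of an array set limit what the dim extra probe sets can show.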
